A study of Homo sapiens with 32 samples.

Results

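The mitochondrial ribosomal protein genes were taken as the entries of the deposited FPKM table (fragments mapped to a gene, scaled for transcript length and sequencing depth) whose symbol is MRPL or MRPS followed by a number and, in some cases, a letter. They were 77 of 22610 entries, with 48 MRPL genes named for the large subunit and 29 MRPS genes named for the small subunit. SK-N-BE(2), a human neuroblastoma cell line that is MYCN-amplified, was plated on 6-well dishes and treated the next day with 20 µM cannabidiol (CBD) in ethanol or with the vehicle alone (0.1% ethanol), and polyA RNA was sequenced after 3, 6, 12 and 24 h. Each of the 8 groups held 4 samples, 32 in all. Treatment and time are the only differences the labels give between groups. All samples come from this 1 line, so that donors are not represented. There is no untreated sample and none from before treatment. The methods state that treatments were prepared in quadruplicate, and p-values measure the spread between these samples. The listed adrenergic neuroblastoma markers were present (lowest median 6.78 FPKM for DBH, highest 1587 for MYCN), while PTPRC, a gene of white blood cells, reached at most 0.0305 FPKM.

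The mitochondrial ribosome makes the few proteins encoded in mitochondrial DNA, which are core subunits of the respiratory chain and ATP synthase. Its ribosomal RNAs are transcribed inside the organelle, whereas all of its proteins are encoded in the nucleus, made in the cytosol and imported. Some of its proteins have counterparts in the bacterial ribosome, and others were added in the mitochondrial lineage. The small subunit binds the messenger RNA and holds the decoding site, and the large subunit forms the peptide bond and the exit tunnel. Names and places differ for a few members: MRPS30 and MRPS18A sit in the large subunit, and MRPS36 is now assigned to the 2-oxoglutarate dehydrogenase complex. By place there were therefore 50 large and 26 small subunit members.

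All 77 members were found on 21 chromosomes of GRCh37, and all passed the filter of a mean of at least 1 FPKM that 12621 genes passed. Their median level was 41.2 FPKM, against 10.7 over all genes tested, and 73 of 77 were above the latter. The highest large subunit levels were those of MRPL33 (196.5 FPKM), MRPL51 (160.1) and MRPL12 (132.3), and the lowest those of MRPL57 (6.79), MRPL22 (8.81) and MRPL19 (12.3). In the small subunit the highest were MRPS34 (102.6), MRPS24 (85.2) and MRPS21 (83.8), and the lowest MRPS25 (7.06), MRPS18C (7.51) and MRPS31 (11.4). Among these 12 members the only changes with CBD called at 24 h were in MRPL51, MRPL22, MRPL19 and MRPS18C. Members were tightly measured, with a median coefficient of variation within a group of 3.35% (range 0.3 to 12.27%). The transcripts of 15 members share more than 10% of their 50-base words, the read length used, with another annotated gene in the same orientation, such as an overlapping gene, the readthrough URGCP-MRPS24 or, for MRPL45, the pseudogenes MRPL45P1 and MRPL45P2. The share was highest in MRPL38 (94.2%), MRPL53 (90%), MRPS24 (75.5%), MRPS5 (73.1%), MRPL12 (67.9%) and MRPL46 (44.7%). It was 30.8% in MRPL2, 30.4% in MRPS6, 27.7% in MRPS28, 25.1% in MRPS17, 19.9% in MRPL19, 17.6% in MRPS25, 15.5% in MRPL45, 14.9% in MRPL20 and 11.8% in MRPL30. Levels of these members are uncertain, and 6 of them (MRPL2, MRPL19, MRPL20, MRPL30, MRPS5 and MRPS17) are among those called at 24 h below. Length and GC content, also in the correction used below, are those of the longest annotated transcript of each gene. Median transcript length was 1654 bases in MRPL and 1829 in MRPS genes, and median GC content 49.4% and 44.6%. Over all members the median length was 1717 bases, against 3791 over tested genes of known length, and median GC content 46.4% against 47.8%.

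The test was limma's, run over the log2(FPKM + 1) values of the 8 groups in a joint model, with Benjamini-Hochberg adjustment over all 12621 genes within each comparison and a threshold of 0.01. For genes at low FPKM, fold changes on this scale come out too small. In bulk RNA, fewer cells and less RNA per cell cannot be told apart. Relative depth, estimated from the steps of low values, ranged 1.53-fold over samples. Its mean was lower with CBD than with vehicle at each time (in order of time 0.948, 0.988, 0.911 and 1.00 with CBD, and 1.023, 1.048, 0.999 and 1.058 with vehicle). When relative depth was added as a covariate, 6 members were called at 12 h and 28 at 24 h. Of all 12621 genes, 1986 and 5074 were called with the covariate, against 2533 and 5314 without it.

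The promoters of 4 members are shown because they are examples of the patterns described next: MRPL54 was the member called in opposite directions at 2 times, MRPL40 fell at 24 h, MRPL22 fell at 12 and 24 h, and MRPS30 rose at 24 h. The windows run from 250 bases before to 50 after the first listed start, from RefSeq on GRCh38.p14. They lie at chr19:3762432-3762731 (MRPL54), chr22:19432295-19432594 (MRPL40), chr5:154940823-154941122 (MRPL22) and chr5:44808697-44808996 (MRPS30), all on the plus strand. Capitals mark matches, on either strand, to CCGGAAG (recognised by ETS factors such as GABPA), CGCATGCG (the centre of the NRF1 motif), AAGATGGCG (YY1) or CACGTG (the E-box of the MYC family).
MRPL54: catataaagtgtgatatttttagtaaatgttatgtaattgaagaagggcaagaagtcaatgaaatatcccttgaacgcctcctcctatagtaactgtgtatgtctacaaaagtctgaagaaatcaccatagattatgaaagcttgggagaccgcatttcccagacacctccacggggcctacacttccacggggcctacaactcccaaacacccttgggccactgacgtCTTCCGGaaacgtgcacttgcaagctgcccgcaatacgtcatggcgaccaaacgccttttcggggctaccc
MRPL40: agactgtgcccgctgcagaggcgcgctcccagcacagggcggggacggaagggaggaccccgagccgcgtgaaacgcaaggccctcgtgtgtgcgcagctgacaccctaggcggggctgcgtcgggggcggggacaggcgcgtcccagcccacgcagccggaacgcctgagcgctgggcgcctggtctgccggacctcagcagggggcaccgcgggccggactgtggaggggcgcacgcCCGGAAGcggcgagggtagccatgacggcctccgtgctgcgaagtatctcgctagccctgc
MRPL22: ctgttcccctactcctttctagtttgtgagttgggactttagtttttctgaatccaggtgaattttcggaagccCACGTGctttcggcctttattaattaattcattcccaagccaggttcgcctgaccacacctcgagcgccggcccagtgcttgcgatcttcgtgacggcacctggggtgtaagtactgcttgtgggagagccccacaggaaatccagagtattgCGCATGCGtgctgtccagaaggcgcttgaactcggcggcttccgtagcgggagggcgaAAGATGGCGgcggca
MRPS30: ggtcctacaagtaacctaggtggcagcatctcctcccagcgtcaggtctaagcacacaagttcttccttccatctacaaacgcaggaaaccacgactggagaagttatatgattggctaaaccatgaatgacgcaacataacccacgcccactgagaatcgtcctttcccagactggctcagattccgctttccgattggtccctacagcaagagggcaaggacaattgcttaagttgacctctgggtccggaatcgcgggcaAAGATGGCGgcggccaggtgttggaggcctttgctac

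The ETS letters lie at bases -21 to -15 from the start in MRPL54 and at -11 to -5 in MRPL40. In MRPL22 the NRF1 letters lie at -23 to -16, the E-box at -176 to -171 and the YY1 letters at 36 to 44, and in MRPS30 the YY1 letters lie at 14 to 22. A promoter was matched for 68 of the 77 members. The ETS letters were found in 28 of these 68 (41.2%), in 20.1% of the 9032 promoters of tested genes and in 10.7% of all 27305 promoters. The YY1 letters were found in 13 of 68 (19.1%), against 4.34% and 1.85%. The E-box was found in 6 of 68 (8.82%), against 10.7% and 7.43%, and the NRF1 centre in 3 of 68 (4.41%), against 4.1% and 2.19%. The ETS and YY1 letters overlapped each other in none of the 68. Both subunits held the ETS letters in similar shares, 16 of 41 large (39%) and 12 of 27 small (44.4%). At least 1 of the 4 motifs was found in 41 of 68 members (60.3%) and in 34% of the promoters of tested genes. It was found in 11 of 18 members called lower at 24 h (61.1%) and in 1 of 5 called higher, MRPS30. The ETS letters were in 7 of these 18 and 0 of these 5. The promoter of MRPS30 therefore does not represent the members that rose. Nor do those of MRPL54, MRPL40 and MRPL22 represent all members that fell. Each of these holds a motif, and MRPL22 holds all but the ETS letters. MRPL11 and MRPS11, called lower at 12 and 24 h, hold none of the 4. These are matches of letters and no record of binding.

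In vehicle-treated cells the members declined between 3 and 24 h. limma called 53 of 77, 52 of them lower, where it called 57.8% of all genes tested and 31.1% as lower. In the large subunit 37 of 48 fell and 1 rose, and in the small subunit 15 of 29 fell and none rose. The median log2 fold change was -0.23 in the large and -0.14 in the small subunit, against -0.013 over all genes. Genes with a mean of at least 5 FPKM, as all 77 members have, had a median of -0.054. Of these 8984 genes 3387 were called lower. Among the members with the largest declines were MRPS16 (-0.45), MRPL49 (-0.41), MRPS12 (-0.38) and MRPL18 (-0.38). MRPS12, the protein of the decoding site, went from 20.0 ± 2.44 to 15.0 ± 0.655 FPKM (SD, n = 4). MRPL10, which anchors the stalk where translation factors act, was the member that rose in vehicle, by 0.15 (adjusted p = 0.00123, limma). MRPL45, which lies at the exit tunnel and the inner membrane, was at 45.3 ± 0.296 and 45.4 ± 1.01 FPKM (SD, n = 4). Each CBD effect below is therefore set against a vehicle level that moved with time in culture.

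At 3 h most members were slightly higher with CBD, but by amounts close to the error. The log2 fold change was above 0 in 72 of 77 members (53.7% of all genes), with a median of 0.064 in the large subunit, 0.058 in the small and 0.0066 over all genes. limma called MRPL54 as higher, 1 of 77 members, where it called 2.46% of all genes and 1.18% as higher. At an unadjusted p under 0.05 there were 20 of 48 large and 9 of 29 small subunit members (23.1% of all genes). The 4 CBD samples were all above the 4 vehicle samples in 11 members, against 5.52% of all genes. The direction was the same with each scaling tried, but the number above 0 fell to 58 under quantile normalization and 55 with a correction for length and GC content, and that correction lowered the large subunit median to 0.026.

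MRPL54, a large subunit protein specific to mitochondria, was the member called with CBD at 3 h, and it was called in the opposite direction later. At 3 h it was at 100.5, 94.5, 100.2 and 98.9 FPKM with vehicle and at 106.3, 109.8, 108.5 and 109.7 FPKM with CBD, and the groups did not overlap. The log2 fold change was 0.14 ± 0.03 (SE), with an adjusted p of 0.00151 from limma. At 12 h it was at 90.5, 92.7, 94.4 and 91.8 FPKM with vehicle and 85.0, 84.5, 86.2 and 85.0 with CBD. At 24 h it was at 80.6, 81.8, 80.5 and 82.6 FPKM with vehicle and 70.6, 67.7, 75.4 and 71.2 with CBD. At both later times every CBD sample was below every vehicle sample, with log2 fold changes of -0.12 and -0.19 (adjusted p = 0.00131 and 8.8e-07, limma). The change of the effect from 3 to 24 h was -0.33 (adjusted p = 9.08e-08). With CBD at 3 h the call did not hold in limma with the samples of that time fitted alone (adjusted p = 0.0484) or with the length and GC correction (adjusted p = 0.152).

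At 6 h limma called 0 of 77 members, where it called 10.2% of all genes tested. At an unadjusted p under 0.05 there were 17 members (32.2% of all genes). The median log2 fold change was 0.016 in the large and 0.0005 in the small subunit. MRPL41, a large subunit protein specific to mitochondria, had the highest estimate, 0.24 ± 0.07 (SE), with 42.4 ± 3.38 FPKM with vehicle and 50.0 ± 2.36 with CBD (SD, n = 4). It did not pass the test (adjusted p = 0.0154, limma).

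At 12 h 10 of 77 members fell with CBD and none rose, where limma called 20.1% of all genes, 11.2% as lower and 8.85% as higher. They were 8 large subunit members (MRPL11, MRPL13, MRPL18, MRPL22, MRPL23, MRPL30, MRPL33 and MRPL54) and 2 small subunit members (MRPS11 and MRPS22). The share of members called lower is near that of all genes, whereas the sign was one-sided: 16 of 77 members were above 0, against 47.4% of all genes, with a median of -0.067 in the large and -0.041 in the small subunit. The 4 CBD samples were all below the 4 vehicle samples in 20 members, against 16.9% of all genes. They were all above in none of the members, against 1694 of the 12621 genes tested. The member count was 5 without a filter on low FPKM, 6 under median-ratio scaling and 19 with the length and GC correction. Over all genes these settings called 2525 of 22610, 2477 of 12621 and 3008 of 11479, against 2533 of 12621 in the main fit. The member count was 4 to 6 without any 1 of vehicle replicates 1, 2 and 3 and CBD replicates 1, 2 and 3 at 12 h. Over all genes it was then 1989 to 2154.

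MRPL33, the most abundant member, was at 210.3, 210.2, 209.7 and 203.8 FPKM with vehicle at 12 h and at 188.7, 185.5, 187.5 and 183.5 FPKM with CBD. The groups did not overlap, and the log2 fold change was -0.16 ± 0.04 (SE, adjusted p = 0.00623 from limma). At 24 h its groups overlapped (174 to 195 with vehicle, 153 to 185 with CBD) and it was not called (adjusted p = 0.0179). MRPS11, a small subunit protein with a bacterial counterpart, was at 20.3, 19.1, 20.7 and 18.6 FPKM with vehicle at 12 h and at 17.6, 17, 17.8 and 17.8 with CBD, again without overlap. Its log2 fold change was -0.16 ± 0.04 at 12 h and -0.20 ± 0.04 at 24 h (SE, adjusted p = 0.00485 and 0.000202, limma). The 12 h call of MRPL33 was lost without a filter on low FPKM and under median-ratio scaling (adjusted p = 0.0107, limma). It was also lost when any 1 of 7 samples was left out (at most 0.0175, without CBD replicate 4 at 12 h). The 12 h call of MRPS11 was lost with the 12 h samples alone (adjusted p = 0.0159, limma) and with relative depth as a covariate. It was also lost when any 1 of 4 samples was left out (at most 0.0267, without vehicle replicate 3 at 12 h).

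MRPL22, a large subunit protein with a bacterial counterpart and among the lowest members in level, was called lower at 12 and 24 h by a narrow margin. At 12 h it was at 9.84, 8.97, 9.33 and 9.26 FPKM with vehicle and at 8.63, 8.13, 8.05 and 9.14 with CBD, and the groups overlapped. At 24 h it was at 7.60, 7.94, 8.08 and 8.01 FPKM with vehicle and at 7.55, 6.90, 7.24 and 7.20 with CBD, without overlap. The log2 fold changes were -0.13 ± 0.04 and -0.12 ± 0.04 (SE, adjusted p = 0.00789 and 0.00813, limma). Each of the calls was lost under 5 alternatives (adjusted p up to 0.0657 at 12 h and 0.0638 at 24 h) and when any 1 of 6 samples was left out (up to 0.0412 without vehicle replicate 1 at 12 h, and 0.0375 without CBD replicate 2 at 24 h). The 12 h call of MRPL13 was lost under 4 alternatives and when any 1 of 19 samples was left out (adjusted p up to 0.0329, limma, without vehicle replicate 2 at 12 h).

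**Figure D1:**
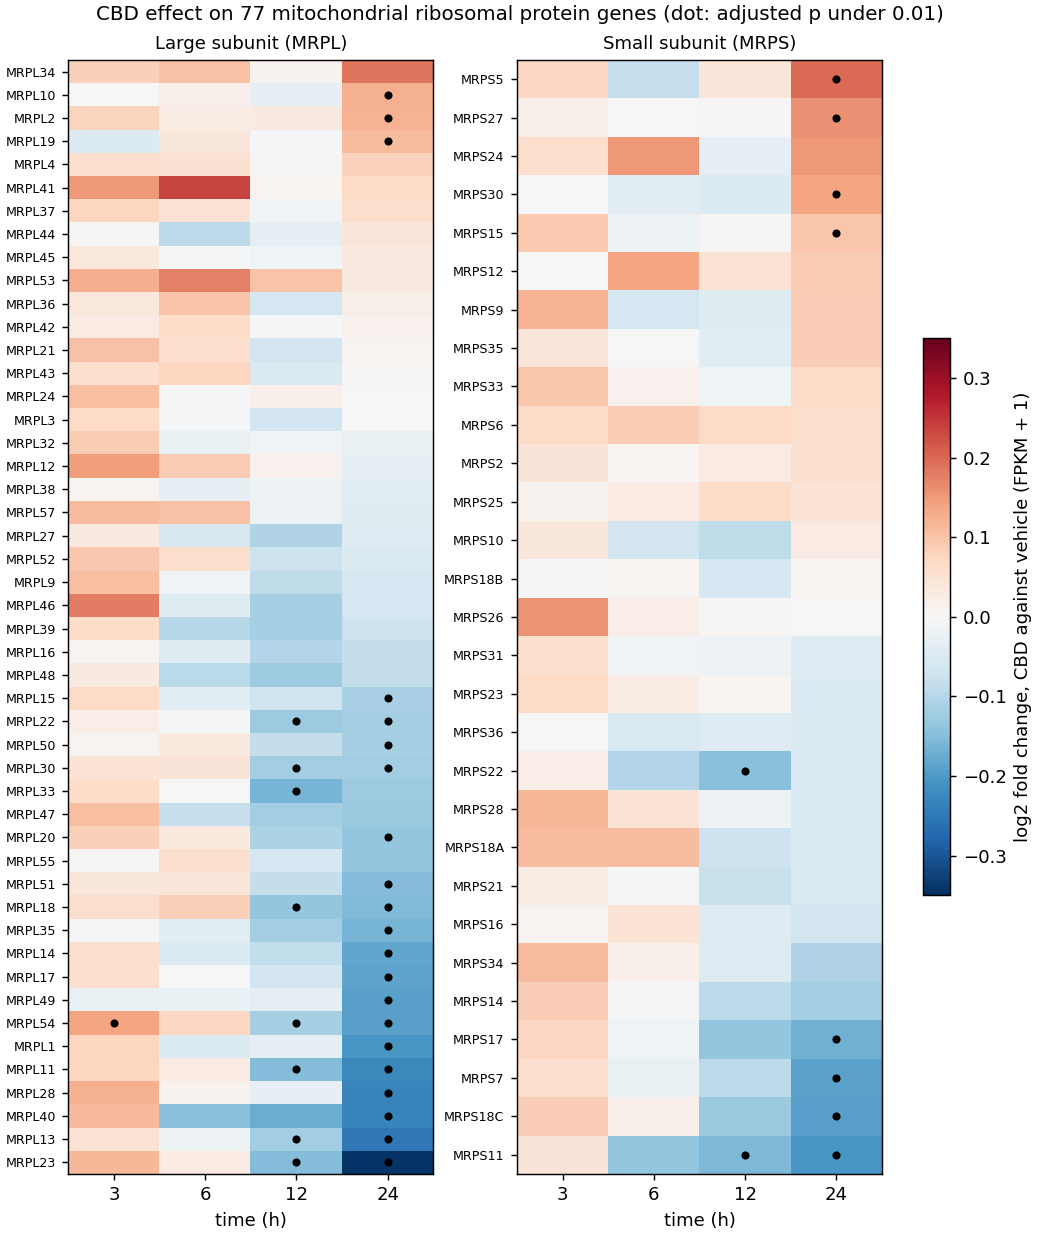
Heat maps of the log2 fold change of FPKM + 1, CBD against vehicle (colour), for each large subunit member (left) and small subunit member (right), rows ordered by the value at 24 h, columns by time in h; dots mark an adjusted p under 0.01 from limma. The dots are 1 at 3 h, 0 at 6 h, 10 at 12 h, all lower, and 29 at 24 h, 7 of them higher.

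At 24 h more large subunit members fell than rose, and as many small subunit members rose as fell. limma called 29 of 77 members (37.7%), where it called 42.1% of all genes tested. In the large subunit 18 of 48 fell and 3 rose, and in the small subunit 4 of 29 fell and 4 rose, where 21.3% of all genes fell and 20.8% rose. The median log2 fold change was -0.066 in the large subunit and 0.0004 in the small one, against -0.0032 over all genes. The 4 CBD samples were all below the vehicle samples in 20 large and 5 small subunit members (25.9% of all genes) and all above in 5 of each (25.1%). By place in the ribosome the counts were 18 lower and 4 higher of 50 large, and 4 lower and 3 higher of 26 small subunit members. Proteins with other names, described below, are not in these counts. Among those of the small subunit, 3 fell (AURKAIP1, CHCHD1 and PTCD3) and 1 rose (DAP3).

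The large subunit members with a bacterial counterpart had the lower values. Of these 30, 13 fell (43.3%) and 3 rose (10%), with a median log2 fold change of -0.11. Over all genes tested 21.3% fell and 20.8% rose. Of the 20 large subunit members specific to mitochondria 5 fell (25%) and 1 rose (5%), with a median of -0.046. In the small subunit 4 of the 16 members with a bacterial counterpart fell (25%) and 2 rose (12.5%), with a median of -0.012. Of 10 specific to mitochondria 1 rose (10%) and none fell (median 0.0041). The shares of 25% that fell are near that of all genes.

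MRPL23, a protein at the rim of the exit tunnel (chr11:1968508-2005752 on GRCh37, plus strand), had the largest fall at 24 h. It was at 56.0, 55.2, 54.8 and 56.2 FPKM with vehicle and at 41.1, 43.1, 45.5 and 45.0 with CBD. Every CBD sample was below every vehicle sample, and the log2 fold change was -0.34 ± 0.04 (SE, adjusted p = 1.4e-07 from limma). At 3 h the order of the groups was the reverse, with 69.2, 64.8, 64.4 and 62.4 FPKM with vehicle and 69.6, 71.2, 71.0 and 71.1 with CBD, but it did not pass the test (adjusted p = 0.0876). Its call at 12 h (-0.15, adjusted p = 0.00712) was lost under 4 alternatives (adjusted p up to 0.0884) and when any 1 of 5 samples was left out (up to 0.0465, without CBD replicate 1 at 12 h). None of its 50-base words is shared with another gene in the same orientation, and the opposite strand, where MRPL23-AS1 is named, was not compared.

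MRPL13 and MRPL40 followed in size at 24 h. MRPL13, a large subunit protein with a bacterial counterpart, was at 39.0, 38.4, 37.3 and 39.6 FPKM with vehicle and at 30.6, 33.2, 31.7 and 33.7 with CBD. MRPL40, specific to mitochondria, was at 50.8, 49.5, 51.7 and 51.1 FPKM with vehicle and at 39.5, 45.4, 44.9 and 42.7 with CBD. In neither did the groups overlap, and the log2 fold changes were -0.25 ± 0.03 and -0.23 ± 0.06 (SE, adjusted p = 9.35e-07 and 0.0023, limma). Without CBD replicate 1 at 24 h, MRPL40 was not called (adjusted p = 0.0144). MRPL28, another protein with a bacterial counterpart, went from 54.0 ± 0.513 FPKM with vehicle to 45.9 ± 2.08 with CBD (SD, n = 4), a log2 fold change of -0.23 ± 0.03 (SE, adjusted p = 1.62e-06).

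The proteins of the stalk did not move together. MRPL11, at the base of the stalk, was at 29.3, 29.4, 30.9 and 29.9 FPKM with vehicle at 24 h and at 24.8, 26.2, 25.2 and 25.6 with CBD. MRPL10 was at 35.8, 38.3, 38.2 and 36.8 FPKM with vehicle and at 42, 40.1, 41.9 and 39.0 with CBD. MRPL12, which contacts translation factors, was at 111 ± 1.95 FPKM with vehicle and 108 ± 3.85 with CBD (SD, n = 4). The groups of MRPL11 and of MRPL10 did not overlap but lay in opposite order, whereas those of MRPL12 overlapped. The log2 fold changes were -0.23 ± 0.03, 0.13 ± 0.04 and -0.03 ± 0.05 (SE, adjusted p = 1.55e-06, 0.00785 and 0.559, limma). The difference between these genes was not tested. The level of MRPL12 is uncertain, as 67.9% of its 50-base words are shared with another gene. The call of MRPL10 was lost without a filter on low FPKM, with the 24 h samples alone (adjusted p = 0.0125) and when any 1 of 5 samples was left out (up to 0.034, without vehicle replicate 1 at 24 h).

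Of the 7 members that rose at 24 h, MRPS5, MRPS27 and MRPS30 had the largest changes. MRPS27, a small subunit protein specific to mitochondria, was at 41.1, 41.2, 40.7 and 41.2 FPKM with vehicle at 24 h and at 45.5, 46.8, 46.0 and 45.9 with CBD. The groups did not overlap, and the log2 fold change was 0.16 ± 0.02 (SE, adjusted p = 9.12e-08 from limma). At 3 h the gene was at 45.3 ± 1.2 FPKM with vehicle and 45.9 ± 1.14 with CBD (SD, n = 4). The level with CBD at 24 h, 46.0 ± 0.522, was thus close to that at 3 h, while the vehicle level fell by 0.14 (log2, adjusted p = 5.95e-07).

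MRPS5, a small subunit protein with a bacterial counterpart, was at 32.1, 30.6, 32.6 and 32.4 FPKM with vehicle at 24 h and at 36.2, 37.1, 38.2 and 35.8 with CBD, without overlap. Its level is uncertain, as 73.1% of its 50-base words are shared with other genes. The log2 fold change was 0.20 ± 0.04 (SE, adjusted p = 0.000244 from limma), and the vehicle level at 24 h was 0.08 above that at 3 h on the log2 scale (adjusted p = 0.0898). MRPS30, which sits in the large subunit despite its name, was at 27.3, 25.5, 25.7 and 25.2 FPKM with vehicle and at 28.8, 28.9, 29.8 and 27.2 with CBD. Here vehicle replicate 1 lay above the lowest CBD sample, and the log2 fold change was 0.14 ± 0.03 (SE, adjusted p = 0.00141). The call of MRPS30 was lost with the 24 h samples fitted alone (adjusted p = 0.0104). The other rises were in MRPL2 (0.12), MRPL19 (0.11) and MRPS15 (0.10), besides MRPL10. That of MRPL19 was lost under 3 alternatives and when any 1 of 6 samples was left out (adjusted p up to 0.0506, without vehicle replicate 1 at 24 h).

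**Figure D2:**
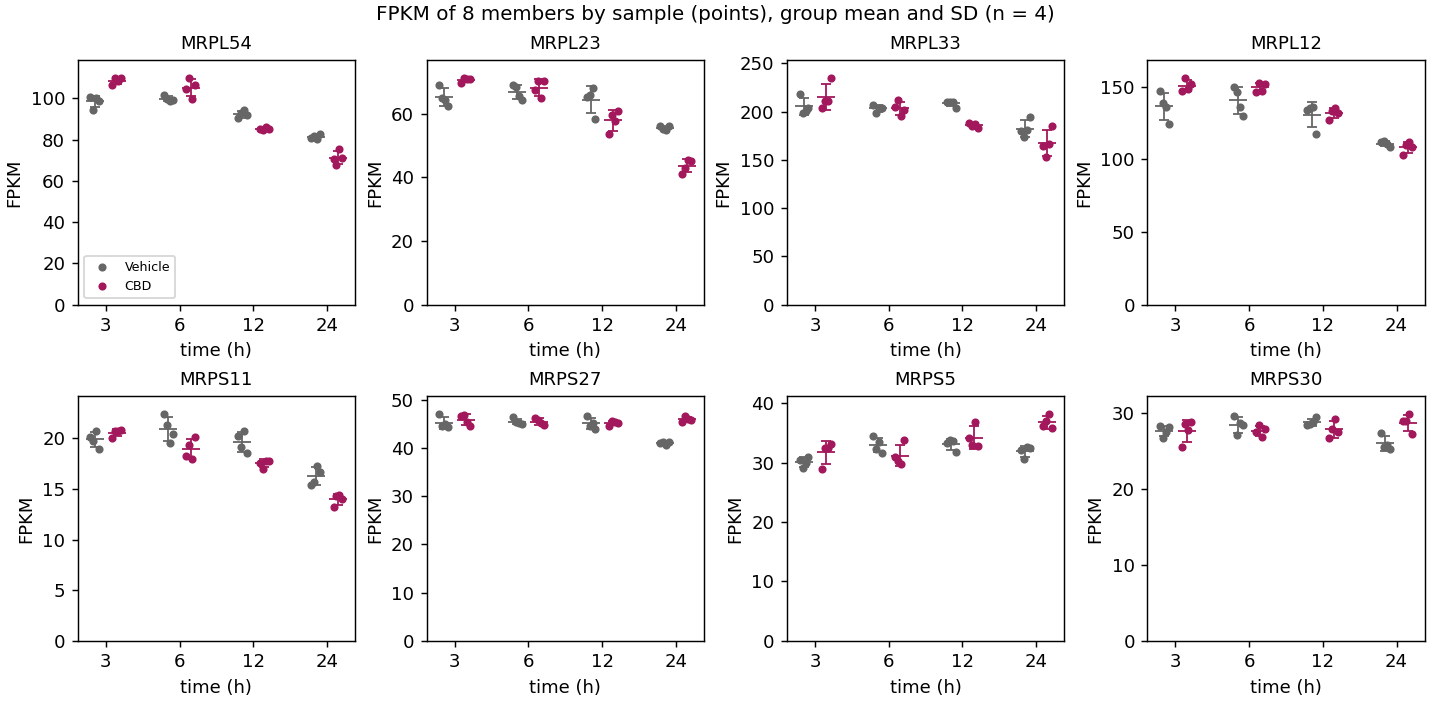
FPKM (vertical axes, from 0) of MRPL54, MRPL23, MRPL33, MRPL12, MRPS11, MRPS27, MRPS5 and MRPS30 by time in h, with each sample as a point and the group mean with SD (n = 4) as bars, vehicle in grey and CBD in magenta. The CBD samples of MRPL23 at 24 h sit between 41.1 and 45.5, below the vehicle samples, and those of MRPS27 between 45.5 and 46.8, above them.

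MRPS18A, MRPS18B and MRPS18C are relatives of the same bacterial protein that sit in different places, MRPS18A in the large subunit and the other two in the small one. MRPS18C was at 6.57 ± 0.179 FPKM with vehicle at 24 h and 5.63 ± 0.365 with CBD (SD, n = 4), without overlap, a log2 fold change of -0.19 ± 0.05 (SE, adjusted p = 0.00367 from limma), which was lost when any 1 of 2 samples was left out (at most 0.0216, without CBD replicate 2 at 24 h). MRPS18B was at 46.1 ± 0.896 and 46.4 ± 1.85 FPKM (adjusted p = 0.891) and MRPS18A at 23.6 ± 0.847 and 22.7 ± 0.516 (adjusted p = 0.163). MRPS36, of the 2-oxoglutarate dehydrogenase complex, was at 19.8 ± 0.881 and 19.1 ± 0.886 FPKM (adjusted p = 0.477) and was called at no time.

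The change of the CBD effect between times was tested as an interaction. From 3 to 24 h it was called in 25 of 77 members, 24 of them towards lower values, where limma called 27.2% of all genes and 14.3% towards lower values. These were 17 of 48 large and 7 of 29 small subunit members. The largest changes were those of MRPL23 (-0.46 ± 0.06, SE), MRPL28 (-0.36 ± 0.05) and MRPL40 (-0.35 ± 0.09), with adjusted p of 8.45e-07, 1.12e-06 and 0.00228 from limma. MRPS27 was the member that changed towards higher values (0.14, adjusted p = 0.000174). From 12 to 24 h the effect changed in 3 of 77 members, where 8.15% of all genes were called: MRPL28 (-0.20), MRPS27 (0.16) and MRPS30 (0.19). The last was lost under 7 alternatives (adjusted p up to 0.0211) and when any 1 of 25 samples was left out. The F-test over the 4 times called 35 members, 25 large and 10 small, where it called 47.2% of all genes. Over the 4 single comparisons, 14 members fell at 24 h alone, 7 at 12 and 24 h, 2 at 12 h alone, 7 rose at 24 h alone, MRPL54 was called at 3 times and 46 were called at none. Such patterns were not counted over all genes.

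Averaged within each sample, the large subunit stood above the small one by a margin that shrank with time and was smallest with CBD at 24 h. The difference between the mean log2(FPKM + 1) of the 48 large and 29 small subunit members was 0.427, 0.436, 0.412 and 0.412 with vehicle at 3 h and 0.442, 0.418, 0.423 and 0.432 with CBD. At 12 h it was 0.398, 0.407, 0.398 and 0.378 with vehicle and 0.351, 0.378, 0.357 and 0.391 with CBD. At 24 h it was 0.366, 0.392, 0.360 and 0.359 with vehicle and 0.300, 0.296, 0.300 and 0.316 with CBD. The groups overlapped at 3 and 12 h and did not at 24 h. At 6 h the means were 0.403 ± 0.0146 with vehicle and 0.415 ± 0.0038 with CBD (SD, n = 4), and the groups overlapped. The gap between the median fold changes of the subunits at 24 h was below 0 in each setting computed, from -0.069 to -0.05. The small subunit median alone ranged from -0.039 to 0.02. Settings that change only the filter or the spread leave the fold changes, and so the gap, as they are (-0.066). Where the gap could move, it was -0.069 and -0.058 with 0.1 or 5 added, and -0.066 under median-ratio scaling. It was -0.069 under quantile normalization, -0.060 with the length and GC correction and -0.050 with relative depth as a covariate.

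In summed FPKM the large subunit went from 2780 ± 79.2 with vehicle at 3 h to 2408 ± 17.1 at 24 h, and it was 2291 ± 41.7 with CBD at 24 h (SD, n = 4). The small subunit went from 1198 ± 35.5 to 1065 ± 9.64, and it was 1070 ± 15.2 with CBD. The ratio of the sums at 24 h was 2.24 to 2.28 with vehicle and 2.10 to 2.19 with CBD. These sums are carried by the most abundant members, and no test was made on averages over the members.

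**Figure D3:**
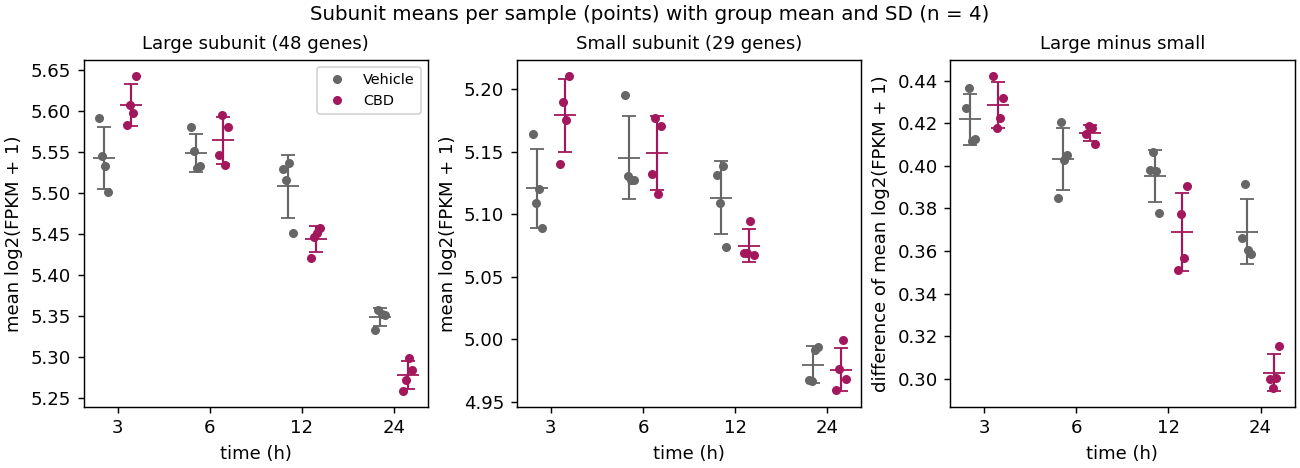
Mean log2(FPKM + 1) of the 48 large subunit members (left) and 29 small subunit members (middle), and their difference (right), by time in h, with each sample as a point and the group mean with SD (n = 4) as bars, vehicle in grey and CBD in magenta; the vertical axes do not start at 0. In the right panel the CBD samples at 24 h sit between 0.296 and 0.316, below the vehicle samples at 0.359 to 0.392.

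**Figure D4:**
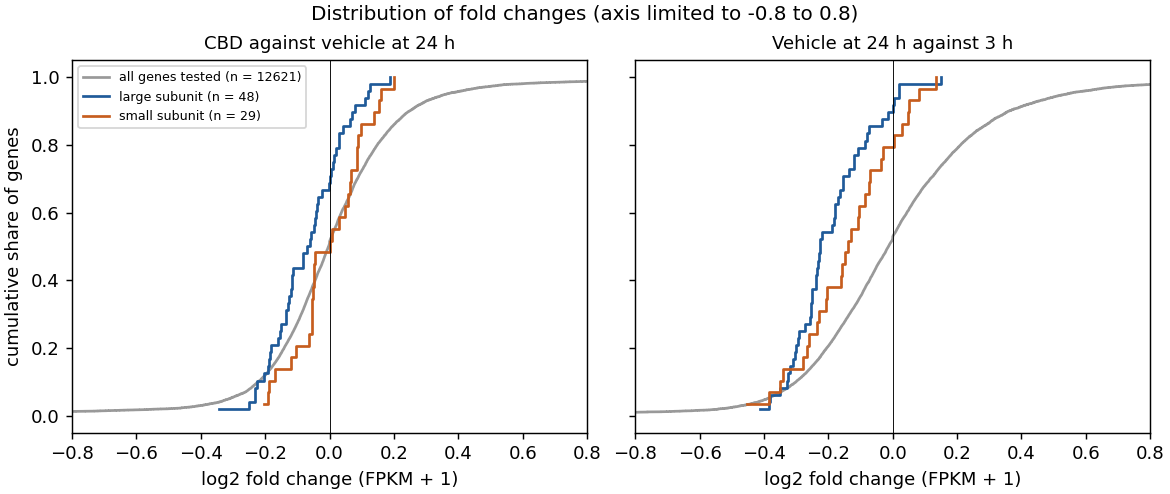
Cumulative share of genes (vertical axis) by log2 fold change of FPKM + 1 (horizontal axis) for all 12621 genes tested in grey, large subunit members in blue and small subunit members in orange, for CBD against vehicle at 24 h (left) and vehicle at 24 h against 3 h (right). The large subunit has medians of -0.066 and -0.23, and the small subunit 0.0004 and -0.14.

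Of the 6 mitoribosomal proteins listed under other names, DAP3, a GTP-binding protein of the small subunit head, had the largest change. It was at 49.5 ± 1.29 FPKM with vehicle at 24 h (47.8 to 50.8) and 61.8 ± 1.86 with CBD (59.7 to 63.6; SD, n = 4), and the groups did not overlap. The log2 fold change was 0.17 ± 0.03 at 12 h and 0.32 ± 0.03 at 24 h (SE, adjusted p = 4.79e-05 and 7.08e-10, limma). At 24 h AURKAIP1 (-0.17), CHCHD1 (-0.15) and PTCD3 (-0.08), also of the small subunit, fell, and the large subunit proteins ICT1 (0.07) and GADD45GIP1 (-0.06) were not called. These last 2 rose at 3 h, by 0.15 and 0.21 (adjusted p = 0.00537 and 0.00798, limma).

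Genes that act with the ribosome moved in both directions at 24 h. The shares called were between 53.8% and 58.3% of each list, against 42.1% of all genes tested (20.8% higher and 21.3% lower). Of 16 translation factors 4 rose and 5 fell. OXA1L, which inserts new proteins into the inner membrane, rose by 0.20 and LRPPRC, which stabilises mitochondrial messenger RNAs, by 0.16 and MRRF, the ribosome recycling factor, by 0.12, while C12orf65, a factor of ribosome rescue, and TSFM, the exchange factor of the elongation factor TUFM, each fell by 0.18 and TACO1, a translational activator, fell by 0.17. Of 26 assembly and rRNA modification factors 7 rose and 7 fell. NOA1, a GTPase of ribosome assembly, rose by 0.39, MRM1, an rRNA methyltransferase, by 0.26 and RPUSD3 by 0.24, while MTG1, a GTPase that acts on the large subunit, fell by 0.25, FTSJ2 (MRM2), an rRNA methyltransferase, by 0.23 and WBSCR16 by 0.22.

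Of the 12 measured regulators of mitochondrial transcription and biogenesis, 4 rose and 3 fell at 24 h, where 20.8% of all genes rose and 21.3% fell. MYCN, the amplified gene of this line, went from 1554 ± 40.7 FPKM with vehicle to 2257 ± 130 with CBD (SD, n = 4), a log2 fold change of 0.54 ± 0.04 (SE, adjusted p = 1.82e-12, limma). ESRRA rose by 0.31, PPRC1 by 0.22. The other gene that rose, named after its value was seen, was POLRMT, the mitochondrial RNA polymerase, by 0.19. MTERF1 fell by 0.35, TFAM, which packages mitochondrial DNA, by 0.15 and TEFM, a transcription elongation factor, by 0.15. NRF1 (-0.04), GABPA (0.08) and YY1 (0.01), named here for the motifs after their values were seen, were not called at 24 h. PPARGC1A, PPARGC1B and MYC were below the filter.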

How the data were processed

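RNA of SK-N-BE(2) cells from 8 groups of 4 samples was analysed. Groups and replicate numbers were taken from the sample titles. Per the labels and the methods, the authors trimmed single 50-base reads with Trimmomatic version 0.36, aligned them to hg19 with Tophat (TopHat2 version 2.2.1 in the submitters' processing notes) and estimated expression with Cufflinks. The values deposited by the authors are FPKM for each sample and were used as they are. The labels name a Nugen library kit and the methods a TruSEQ one, and the methods describe the reads as first stranded. Whether the expression estimates used strand is not given in the sources used here. FPKM hold no read counts, so absolute depth is unknown and no counting interval is given. Relative depth came from 1585 genes above 0 in 2 to 8 samples, where 82.9% of 5204 ratios lay within 10% of a whole number. The authors' table of Cuffdiff comparisons (log2 fold changes and q-values) was not used.

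For 12621 genes with a mean of at least 1 FPKM, the 8 group means of log2(FPKM + 1) were estimated in R (version 4.3.3) by limma (version 3.58.1), whose eBayes step used an intensity trend. No 2 samples were identical. In simulated data where 200 of 12621 genes had a log2 change of 0.2, 50.5%, 51.5%, 50% and 50% were recovered at 3, 6, 12 and 24 h, with at most 1 false call, and with a change of 0.5 it was 97.5%, 97%, 97% and 97%, with at most 4. Most member changes are at or under 0.2. The shares recovered are over all genes tested, with far fewer genes changed than the 5314 called at 24 h. Recovery among the members was not tested.

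Members and lists were chosen with earlier results of these data known. Named in full were the 3 largest rises and falls per comparison among called members whose groups do not overlap, members called in opposite directions or at 3 or more times, the 3 largest changes of effect from 3 to 24 h in each direction, the 3 highest and lowest members of each subunit, and members with a stated role; of the other lists, the 3 largest called in each direction, and short lists in full. Positions are from GENCODE version 44 on GRCh37, the build of the authors' hg19, and all 77 lay on the chromosome the authors give. The cell line was checked against lists of adrenergic, mesenchymal and white blood cell markers. Alternatives were another value added before the logarithm (0.1 or 5), no filter or at least 5 FPKM, median-ratio scaling, quantile normalization, the compared samples alone, eBayes without trend, robust eBayes, a replicate block, a correction with splines of 5 degrees of freedom for length and GC content (known for 91.0% of genes tested and all 77 members), relative depth as a covariate, subunits by place, a threshold of 0.05, and each sample left out. Same-numbered CBD and vehicle samples were checked for pairing by the correlation of their deviations from the group means.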

Additional observations from a re-analysis of the deposited data

Results flagged for a closer look

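In groups of 4, a sample was singled out when its gap to the nearest other sample as a share of the group's range exceeded the critical value of Dixon's test, which chance alone gives in about 1 of 20 groups. Of 248 groups looked at, 17 held such a sample. The CBD sample of replicate 1 at 3 h was the lowest of its group for MRPL23 (69.6 FPKM), MRPL40 (49.8), MRPS11 (20.1) and MRPS5 (28.9). At 12 h vehicle replicate 4 was the lowest for MRPL12 (117.6) and MRPL33 (203.8), and CBD replicate 3 the highest for MRPS34 (103.0) and for the mean log2 value of the small subunit (5.09). At 24 h vehicle replicate 1 was the lowest for MRPL19 (10.4) and CBD replicate 1 the highest for the same gene (12.6), vehicle replicate 4 was the lowest for MRPS34 (86.5) and CBD replicate 2 the highest for MRPS12 (16.2). At 6 h vehicle replicate 1 was the highest for MRPL45 (48) and for the small subunit mean (5.20, log2), vehicle replicate 2 the lowest for MRPS31 (10.7) and CBD replicate 3 the lowest for MRPL13 (42.4). Vehicle replicate 2 at 3 h was the lowest for MRPL40 (49.5).

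The effect of CBD differed between 3 and 24 h, by limma's interaction test at an adjusted p under 0.01, in 25 members. On the log2 scale the change was -0.46 in MRPL23, -0.36 in MRPL28, -0.35 in MRPL40, -0.33 in MRPL54, -0.30 in MRPL11 and in MRPL13, and -0.28 in MRPL1 and in MRPS18C. It was -0.25 in MRPS7 and in MRPS11, -0.24 in MRPL14, MRPL17, MRPL46 and MRPS17, -0.23 in MRPL47, -0.22 in MRPL18 and in MRPL20, and -0.20 in MRPS14. It was -0.19 in MRPL51, -0.18 in MRPL15, -0.17 in MRPL30, -0.16 in MRPL9 and in MRPS18A, -0.12 in MRPS23 and 0.14 in MRPS27. Between 12 and 24 h the effect changed in 3 members, by -0.20 in MRPL28, 0.16 in MRPS27 and 0.19 in MRPS30.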

How the results depend on the processing

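Called members numbered 1, 0, 10 and 29 at 3, 6, 12 and 24 h. The count at 24 h stayed between 25 and 38 under every alternative run except leaving out samples (22 to 32) and the threshold of 0.05. The 25 came with the compared samples alone (5050 of 12621 genes) and the 38 with the length and GC correction (5633 of 11479). At 3 h the count was 0 with the compared samples alone (29 genes) or with the length and GC correction (436 genes), and 9 at a threshold of 0.05. At 6 h it was 1 under quantile normalization (1281 of 12621 genes) and 1 with the compared samples alone (425 of 12621). With the length and GC correction it was 7, all lower, where 1726 of 11479 genes were called, 944 of them lower. At 0.05 it was 8. At 12 h it was 5 without a filter (2525 of 22610 genes) and 6 under median-ratio scaling (2477 of 12621). It was 6 with relative depth as a covariate (1986 of 12621) and 19 with the length and GC correction (3008 of 11479). At 0.05 it was 24. The 25 changes of effect from 3 to 24 h became 38 at 0.05. The 3 from 12 to 24 h became 1 with the compared samples alone (995 of 12621 genes), 6 with the length and GC correction (1501 of 11479) and 7 at 0.05. Calls at 0.05 were not counted over all genes.

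The large subunit median was 0.0262 at 3 h and -0.0133 at 6 h with the length and GC correction, and at 24 h -0.0497 under quantile normalization and -0.0987 with that correction. The small subunit median at 24 h was 0.0195, -0.0386 and -0.0211 under quantile normalization, the length and GC correction and the depth covariate. The cause was not tested.

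With 1 sample left out, counts ranged from 1 to 5 at 3 h (5 without CBD replicate 1, 3 without vehicle replicate 1, both of 3 h, and 2 without vehicle replicate 4 of 12 h), 0 to 3 at 6 h (3 without CBD replicate 4), 4 to 14 at 12 h, 20 to 28 for the change from 3 to 24 h, 1 to 3 from 12 to 24 h (1 without CBD replicate 1 of 24 h), 26 to 43 for the F-test and 47 to 54 for vehicle. Over all 12621 genes the counts ranged from 164 to 493 at 3 h, 923 to 1543 at 6 h, 1989 to 2795 at 12 h and 4772 to 5584 at 24 h. They ranged from 3120 to 3766 for the change from 3 to 24 h and 823 to 1217 from 12 to 24 h. For the F-test they ranged from 5499 to 6573 and for vehicle from 6767 to 7503. The subunit medians in order of time ranged from 0.0469 to 0.0835, 0.0023 to 0.0226, -0.0861 to -0.0507 and -0.0775 to -0.0543 in the large subunit, and from 0.0436 to 0.0694, -0.01 to 0.0165, -0.0482 to -0.0283 and -0.025 to 0.0077 in the small one (-0.025 without CBD replicate 3 of 24 h).

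Whether same-numbered CBD and vehicle samples were paired is not given in the labels or methods. The correlation of their deviations was -0.076 to 0.094 over 16 pairs, and 5 of 16 CBD samples correlated best with their own number. Such correlations cannot show how the samples were prepared. With a replicate block the member counts were 1, 0, 12 and 31 in order of time. They were 37 for the F-test (6488 over all genes) and 53 for vehicle (7545). For the changes of effect they were 27 and 2 (3777 and 1234). Over all 12621 genes, the block gave 447, 1570, 2806 and 5641 calls in order of time. Without it there were 310, 1288, 2533 and 5314. Of 518 values of single named members under alternatives, 460 kept their call and direction, 58 lost the call and none reversed. For left-out samples these values hold only the lowest and the highest adjusted p of each call, and the lowest kept every call. Settings that change only the filter or the spread cannot reverse a direction. The share kept is therefore no measure of stability. Depth is known only in relation between samples.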

Other observations

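Of the mesenchymal list, VIM (median over all samples of 213 FPKM) and TWIST1 (211) were high in these cells, SNAI2 had a median of 8.09 (5.004 to 10.4), YAP1 and PRRX1 were at or near 0 (at most 0.0306 and 0.00890 FPKM), and FN1, COL1A1 and COL3A1 were at most 2.43 FPKM. Entries whose names begin like a member but were outside the rule were low: MRPS31P5 had a mean of 1.69 FPKM, MRPL23-AS1 0.840, MRPL45P2 0.677 and MRPL42P5 0.192.

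Across the 77 members the effects at 12 h and at 24 h, which come from separate samples, had a Pearson r of 0.703 and a Spearman rho of 0.742, and 59 had the same sign. Across all 12621 genes tested r was 0.268 and rho 0.668, and 9603 had the same sign. Members are not independent replicates, and they share their libraries at each time.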
